A study of Mus musculus with 14 samples.

Results

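All-trans retinoic acid was compared with untreated culture in mouse embryonic stem (ES) cells. The members of the comparison are 4 of the 14 arrays of the series, chosen by their labels: 2 of cells in 50 nM retinoic acid for 48 h and 2 of control cells. All 4 held RNA of the line MC1-ZE3, of the strain 129/Sv. Control cells (control day 3) were grown for 3 days in standard ES medium with LIF, the cytokine that helps to hold mouse ES cells undifferentiated. The retinoic acid cells (RA 48 h) were plated on gelatin, kept for 24 h in that medium and then given retinoic acid in standard ES medium, with fresh medium every day in both groups. The control's label names no vehicle. The extraction text attached to these samples speaks of pooled picked colonies, whereas the series' design describes whole cultures for these groups. Both groups come from 1 subline, and no label says whether the arrays of a group held separate cultures. The p-values and standard errors below measure a spread between arrays of a group that may be technical, pooled over all 14 arrays of the series.

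Retinoic acid is a derivative of vitamin A that enters cells, binds nuclear retinoic acid receptors paired with retinoid X receptors, and turns on genes that carry retinoic acid response elements. The direct targets in ES cells include enzymes that break retinoic acid down, proteins that carry it, the receptors themselves and the anterior HOX genes, and later responses include loss of the pluripotency network. LIF in the medium acts against that loss. None of these genes can be named on the arrays here: the scanner files give each probe an identifier and a 60-base sequence, and no table pairing probes with genes was used here. Probes are therefore shown by identifier and sequence, the labelled cell type was not checked against its markers, and values for pluripotency, endoderm, neural or feeder-cell genes are not given.

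Each array carried sample RNA in Cy3 beside a reference in Cy5. The reference was RNA of 11 mouse cell lines mixed 2 to 1 with ES cell RNA. The values are log2 of sample over reference, so 0 means as much as in the reference and a difference of 1 is 2-fold. A reference that itself holds ES RNA is the same on every array and cancels between the groups. The 4 arrays shared 1 slide. The control arrays lay at positions 1 and 2 and the RA arrays at positions 3 and 4, so position and treatment cannot be told apart. Cy3 was well above background for 73.1% and 74.8% of probes on the control arrays and for 68.6% and 75.1% on the RA arrays. The number of arrays limits the precision. Replicates correlated across probes at r = 0.992 for control and 0.993 for RA, and the median gap between replicates was 0.0524 and 0.0611 on the log2 scale.

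The 60-base sequences of the probes with the largest differences are given first, since they are the only identity these features carry. The 4 largest rises in RA 48 h came from these probes, of which the fourth is shown as 30 bases around its AATAAA, the poly(A) signal, in capitals:
Z00005024-1: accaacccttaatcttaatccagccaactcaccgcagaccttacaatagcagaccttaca
Z00036124-1: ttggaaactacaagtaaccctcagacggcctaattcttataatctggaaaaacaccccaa
Z00075129-1: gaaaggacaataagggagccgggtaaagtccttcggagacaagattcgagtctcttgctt
Z00065548-1: ctacctcattgcAATAAAgtctgtttttct

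The 4 largest falls came from these probes, shown whole:
Z00004978-1: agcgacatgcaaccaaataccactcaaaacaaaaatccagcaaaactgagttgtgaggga
Z00025932-1: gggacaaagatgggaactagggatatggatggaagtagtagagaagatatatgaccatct
Z00025540-1: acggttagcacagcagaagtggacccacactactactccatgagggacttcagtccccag
Z00030538-1: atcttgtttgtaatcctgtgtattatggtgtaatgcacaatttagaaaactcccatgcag

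Retinoic acid changed many probes by a little and few by a lot, and the large changes were mostly rises. Of 31053 probes tested, 6962 (22.4%) were higher and 4945 (15.9%) were lower at an adjusted p under 0.05 (limma, two-sided, Benjamini-Hochberg over all tested probes). A change of at least 2-fold was also met by 840 probes that rose (2.71%) and 278 that fell (0.895%). At 4-fold the counts were 136 and 15. At 8-fold 27 probes rose and 0 fell. The median change over all tested probes was 0.015, and the median size of a change, in either direction, was 0.168. RA and control arrays did not overlap for 75.3% of tested probes, so separation of the arrays by itself marks little.

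How the calls divided between rises and falls depended on the scaling. Rises made up 58.5% of all calls and 75.1% of 2-fold calls after loess, but 45% and 60.4% with Agilent's processed signals, 45% and 63.6% after centring each array on its median, 48.9% and 67.1% in the Cy3 channel alone, and 50.2% and 64.1% in the authors' value table. All 840 probes that rose and all 278 that fell at least 2-fold kept their direction under each of these settings that held them. The value table held 646 and 207 of them. Under loess, processed signals, offset 16, median centring and Cy3 alone together, 514 probes rose and 255 fell at least 2-fold. Leaving out control day 3 replicate 1 lowered the count of falls without a fold limit to 3211, and the 2-fold falls then numbered 277.

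**Figure D1:**
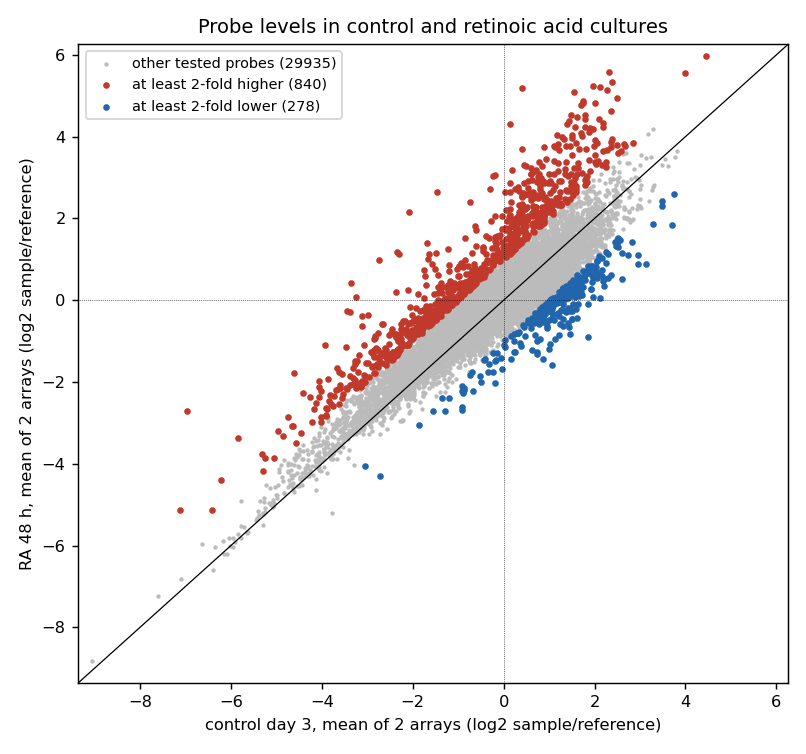
Mean log2 sample over reference of the 2 control day 3 arrays (x axis) and the 2 RA 48 h arrays (y axis) for 31053 tested probes. Red points are the 840 probes at least 2-fold higher and blue points the 278 at least 2-fold lower, both past the adjusted p. The solid line marks equal levels and dotted lines the level of the reference. Red points lie along the whole range of control levels, while most blue points lie to the right of 0.

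Probes that rose were found on both sides of the reference, whereas probes that fell mostly started above it. Of the 840 that rose at least 2-fold, 371 were above the reference in both groups, 285 were below it in both, and 184 moved from below to above. Of the 278 that fell, 128 stayed above the reference, 118 moved from above to below, and 32 were below it in both. In control, 15423 of all 31053 tested probes were below the reference. The median change was 1.34 among the rises and -1.25 among the falls, values that follow from choosing these probes by size. On both control arrays 17 of the rising probes were not well above background, and on both RA arrays 2 of the falling probes were not.

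The shares also differed with brightness. When the tested probes were split into 4 groups by brightness, the dimmest 7764 probes held 84 rises and 5 falls of at least 2-fold, which is 1.08% and 0.0644% of them. In the group next to the dimmest the shares were 3.29% and 1.03%, in the group next to the brightest 3.85% and 1.71%, and in the brightest 2.6% and 0.773%. An offset added in background correction draws the ratios of dim probes towards 0. With an offset of 16 in place of 50 the 2-fold counts over all tested probes were 1136 and 366. The part of the offset in the differences by brightness was not tested. Base composition moved with the calls as well: of 4 groups by content of G and C, the poorest had 25.5% of probes higher and 19.5% lower, and the richest 17% and 13%. The part of base composition in the calls was not tested.

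The largest rise was that of probe Z00005024-1, from about the reference level to far above it. Its log2 level was 0.29 and 0.52 on the control arrays and 5.16 and 5.23 on the RA arrays. The RA arrays were both high and close together, and the groups did not overlap. The rise was 4.79 ± 0.25 (SE, 2 arrays a group), 27.7-fold, with an adjusted p of 2.05e-08 (limma). Its rise ranged from 4.42 to 6.06 over the alternative settings.

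Probe Z00036124-1 rose while staying far below the reference. It read -7.02 and -6.93 in control and -2.78 and -2.63 in RA. All 4 values were below 0, so its RNA was scarce in these cells beside the reference even after treatment. The rise was 4.27 ± 0.12 (SE), 19.3-fold, with an adjusted p of 2.69e-10 (limma).

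Probe Z00075129-1 crossed the reference level. It stood at -2.09 and -2.06 in control and at 2.16 and 2.17 in RA, a rise of 4.24 ± 0.12 (SE) with an adjusted p of 3.31e-10 (limma). The replicates of each group were close together. Probe Z00065548-1, which ends near a poly(A) signal, stood at 0.17 and 0.10 in control and at 4.32 and 4.30 in RA, a rise of 4.17 ± 0.18 (SE). Probe Z00070363-1 went from -1.47 and -1.46 to 2.62 and 2.66. Both of these separated the groups by more than 4 on the log2 scale.

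The other rises among the 15 largest were between 3.27 and 3.77. Probe Z00018780-1 went from -3.41 and -3.30 in control to 0.35 and 0.48 in RA. Probe Z00036630-1 went from -2.76 and -2.72 to 0.90 and 1.08. Probe Z00022345-1 went from -3.31 and -3.18 to -0.01 and 0.16. These started well below the reference and ended near it or a little above.

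A further set began above the reference and rose from there. Probe Z00076304-1 read 1.50 and 1.59 in control and 5.05 and 5.12 in RA. Probe Z00034256-1 read 1.92 and 2.01 in control and 5.20 and 5.28 in RA. Probe Z00071195-1 read 2.36 and 2.27 in control and 5.57 and 5.60 in RA. Their control levels were already above the reference, and their rises were 3.54 ± 0.20, 3.28 ± 0.13 and 3.27 ± 0.22 (SE).

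In 2 of the 15 rises the control signal was not well above background, so their folds are bounds: the RA mean of the normalized Cy3 signal is set against, per control array, the higher of the probe's own signal and the dimmest signal counted as well above background, without a dye swap to check it. Such a bound holds under the main background correction and normalization only. Probe Z00025873-1 was at least 9.8-fold higher in RA, with measured levels of -2.48 and -2.23 in control and 1.19 and 1.19 in RA. Probe Z00050641-1 was at least 9.72-fold higher, from -2.37 and -2.26 to 1.06 and 1.20. Both control arrays gave only an upper limit for these probes. In the Cy3 channel alone, scaled without the reference, their fitted rises were 2.88 and 2.84 on the log2 scale, which is below these bounds.

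Probe Z00032758-1 had the widest gap between replicates among the 30. Its control arrays read -0.18 and 0.97, 1.15 apart, and its RA arrays 3.64 and 3.75. The groups stayed clear of each other, and the rise of 3.30 ± 0.25 (SE, adjusted p = 4.81e-07, limma) ranged from 2.72 to 3.88 over the alternatives. Probe Z00075138-1 completed the 15, with -0.27 and -0.22 in control and 2.95 and 3.14 in RA.

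The falls were smaller than the rises. Only 15 probes fell at least 4-fold, and these are the 15 described here. Probe Z00004978-1 fell the most, with log2 levels of 1.88 and 1.83 in control and -0.86 and -0.95 in RA. The groups were far apart and the replicates close. It fell by 2.76 ± 0.06 (SE) on the log2 scale, with an adjusted p of 6.83e-11 (limma).

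Probe Z00025932-1 read 1.13 and 1.01 in control and -1.54 and -1.61 in RA, a change of -2.65 ± 0.10 (SE). Probe Z00025540-1 read 0.89 and 0.86 in control and -1.35 and -1.52 in RA, a change of -2.31 ± 0.08. Probe Z00030538-1 read 1.44 and 1.48 in control and -0.81 and -0.86 in RA, a change of -2.30 ± 0.08. All of these crossed from above the reference to below it.

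Probes Z00074657-1, Z00052488-1, Z00003616-1, Z00048598-1 and Z00038583-1 crossed in the same way, with changes of -2.17, -2.09, -2.08, -2.05 and -2.04. Probes Z00052957-1 and Z00034239-1 fell without crossing. The first read 2.62 and 2.61 in control and 0.61 and 0.45 in RA, and the second 2.12 and 2.10 in control and 0.05 and 0.05 in RA. Probe Z00053795-1 was not well above background on either RA array, and its fall is a bound of at least 3.77-fold under the main scaling, with 1.67 and 1.58 in control and -0.43 and -0.43 in RA. In the Cy3 channel alone its fitted change was -1.59, smaller than that bound.

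**Figure D2:**
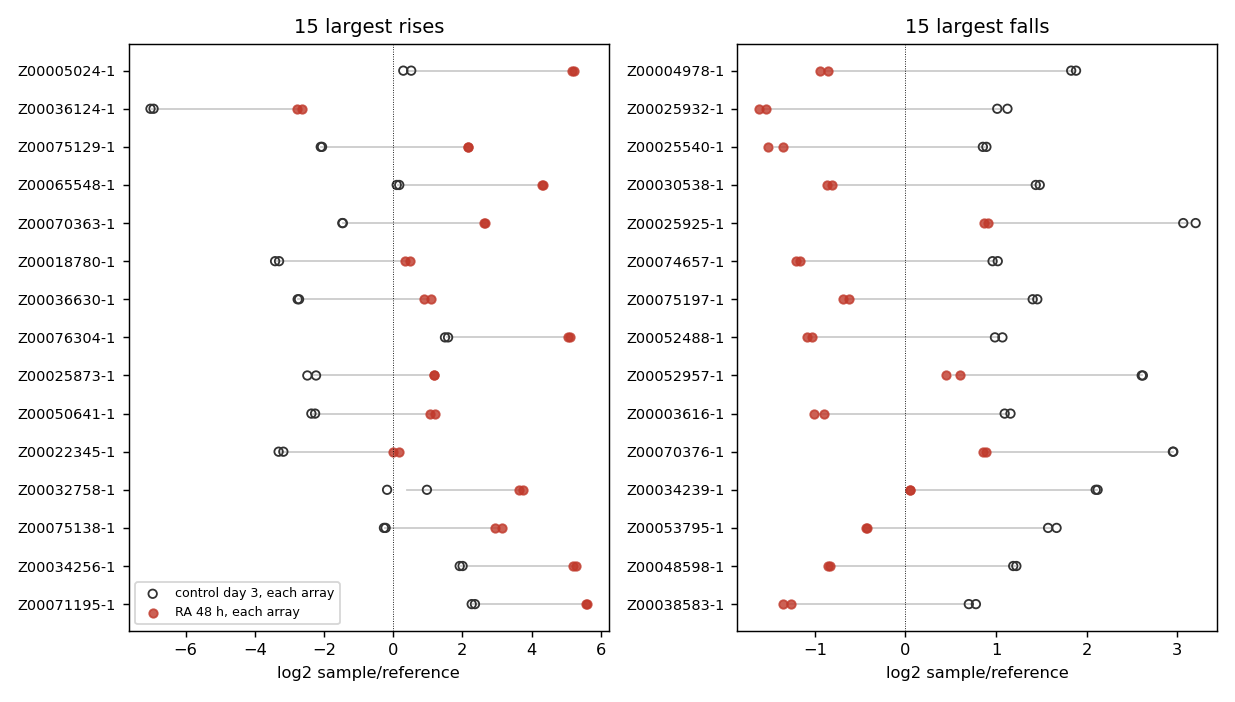
Log2 sample over reference (x axis) of the 15 probes with the largest rises (left) and the 15 with the largest falls (right), 1 probe a row. Open circles are the 2 control day 3 arrays and red circles the 2 RA 48 h arrays, joined by a line between group means, and the dotted line marks the reference level. In all 30 rows the circles of the groups stand apart, and the widest gap between replicates is the 1.15 of Z00032758-1 in control.

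Several of these probes read overlapping stretches of sequence, which gives a second reading of the same change. Probes Z00025925-1 and Z00070376-1 share an overlap of 29 bases with 1 difference (G36A, counted from the 5′ end of Z00025925-1). The first read 3.20 and 3.07 in control and 0.91 and 0.87 in RA. The second read 2.96 and 2.95 in control and 0.90 and 0.86 in RA. The falls were 2.24 and 2.08 in size, with standard errors of 0.26 and 0.24. Both probes were read on the same arrays, so these errors do not measure the spread of the difference between them. Probe Z00075197-1 overlaps Z00035221-1, which is outside the 15, by 36 identical bases. The former changed by -2.09 ± 0.08 and the latter by -1.94 ± 0.08 (SE).

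The clearest overlapping set among the rises lies just below the 15 largest and was picked after its values were seen. Probes Z00073931-1 and Z00073984-1 differ at 1 base (C44T, counted from the 5′ end of the first). Z00010132-1 shares its last 24 bases with the start of both. Z00073892-1 overlaps Z00073931-1 by 30 bases with 1 difference (A55G, counted likewise). They are shown in order along the shared sequence, so that the overlaps can be read:
Z00010132-1: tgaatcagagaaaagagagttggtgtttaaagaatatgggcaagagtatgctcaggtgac
Z00073931-1: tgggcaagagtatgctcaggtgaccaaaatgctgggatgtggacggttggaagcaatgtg
Z00073984-1: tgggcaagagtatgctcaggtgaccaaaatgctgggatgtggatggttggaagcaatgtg
Z00073892-1: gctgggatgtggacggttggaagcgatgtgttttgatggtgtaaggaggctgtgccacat

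These rose together. Probe Z00010132-1 read 2.03 and 2.01 in control and 4.78 and 4.86 in RA. Probe Z00073931-1 read 1.68 and 1.72 in control and 4.76 and 4.77 in RA. Probe Z00073984-1 read 1.73 and 1.76 in control and 4.85 and 4.82 in RA. Probe Z00073892-1 read 1.41 and 1.45 in control and 4.37 and 4.41 in RA. The rises were 2.80, 3.07, 3.08 and 2.96, each with an SE of 0.17, and the array levels did not overlap for any of them. Transcripts that are near copies of each other would reach all 4 probes, so these may read 1 transcript or several.

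Across the array, probes that share sequence gave like results. In 719 pairs of tested probes with an exact run of at least 25 bases in common, both members passed the test in the same direction in 275 and in opposite directions in 0. Of the 47 pairs with a member past 2-fold, all had members of the same sign, and in 38 both members were past 2-fold. The median difference within those 47 pairs was 0.092, and the largest was 0.94. Members of a pair share their target, so they are not replicates of the treatment. Joined by such exact runs, the 840 rises came from 810 stretches and the 278 falls from 266. Probes whose overlap was shorter or held a difference, as in some shown above, could count separately, so these numbers are upper limits.

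Larger families of probes, joined by such runs, were also described. Only families of at least 4 members, or of 3 with a median change of at least 2-fold, were listed, which gave 24. Of the 21 families of at least 4, 13 had 0 members called, and in 3 every member was called. The largest, of 21 probes led by Z00031084-1, had 1 member higher and a median change of 0.017. Members of a family with near-identical targets cannot be told apart by these probes. A family of 6 led by Z00026195-1 had all 6 members higher in RA, with changes of 0.589 to 0.688. That probe read 0.33 and 0.24 in control and 0.89 and 0.88 in RA, a rise of 0.60 ± 0.08 (SE, adjusted p = 8.57e-05, limma). A second family of 6, led by Z00030500-1, also had all 6 higher, by 0.443 to 0.518. That probe read -0.11 and -0.09 in control and 0.37 and 0.37 in RA. The sequences of the leading probes are shown because both families are rich in G and C, at a median of 57.5% and 65.8% of bases:
Z00026195-1: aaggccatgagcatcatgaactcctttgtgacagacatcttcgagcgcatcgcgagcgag
Z00030500-1: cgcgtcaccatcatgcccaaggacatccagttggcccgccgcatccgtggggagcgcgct

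After centring on the median in place of loess, 0 of 6 members passed in either family, with medians of 0.406 and 0.127 in place of 0.63 and 0.483. A family of 8 led by Z00025464-1 had all 8 members higher, with a median of 0.279, but 0 of 8 passed after median centring and 0 of 8 with processed signals. In the families of 6, by contrast, all 6 members passed with processed signals, and in Cy3 alone 6 and 5 passed. Whether these modest rises passed thus depended on how the arrays were scaled. The share of all tested probes called higher was 22.4%, as above.

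Families of 3 were listed only for a median change of at least 2-fold, which 3 of them met. The tested probes formed 61 families of at least 3 members, of which 21 had at least 4. The medians of the 3 listed kept their direction under every alternative. In the family of Z00010273-1 the members rose by 1.81, 1.59 and 0.88. In that of Z00057429-1 they rose by 1.50, 1.69 and 1.64, 2 of these probes have the same sequence, and with processed signals 2 of the 3 passed. In that of Z00005385-1 they changed by -0.86, -1.13 and -1.11. That probe read 1.42 and 1.37 in control and 0.64 and 0.44 in RA, and its groups did not overlap. Sequences of the first members of the rising and the falling family are:
Z00010273-1: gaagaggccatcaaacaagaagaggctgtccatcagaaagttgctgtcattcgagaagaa
Z00005385-1: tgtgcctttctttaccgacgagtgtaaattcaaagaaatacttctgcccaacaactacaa

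Some protein families can be looked for by the letters that encode a conserved stretch. The linker that joins the fingers of C2H2 zinc-finger proteins, a large family of DNA-binding proteins, was searched as ACNGGNGANAANCC, with N any base. This motif was chosen with values in view, among 21 searched on both strands, so its count is a description. It was in 21 tested probes (0.0676% of those tested) on the probe strand and in 2 on the opposite strand. Of the 21, 11 were lower and 2 higher in RA, with a median change of -0.263, against 15.9% lower, 22.4% higher and a median of 0.015 over all tested probes. The result was weaker in the shorter form ACNGGNGANAA: of 51 tested probes 14 were lower and 8 higher, with a median of -0.093. The opposite strand of that form was in 49 probes, of which 5 were lower and 12 higher. The N positions also admit other codons, so a match to the letters does not show that a probe encodes the linker or reads such a gene.

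The probes with the motif, in capitals, that had the largest fall, another fall and the largest rise were these:
Z00073990-1: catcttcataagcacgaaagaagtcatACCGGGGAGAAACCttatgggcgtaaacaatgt
Z00046966-1: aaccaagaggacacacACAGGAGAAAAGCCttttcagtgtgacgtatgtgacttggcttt
Z00018729-1: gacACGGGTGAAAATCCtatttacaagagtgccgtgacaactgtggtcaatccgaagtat

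Probe Z00073990-1 read 1.96 and 1.84 in control and 1.08 and 1.11 in RA, a change of -0.81 ± 0.07 (SE, adjusted p = 2.43e-06, limma). Probe Z00046966-1 read 1.15 and 1.15 in control and 0.51 and 0.53 in RA, a change of -0.63 ± 0.07. Probe Z00018729-1 went the other way, from -0.27 and -0.21 to 0.47 and 0.47. In the motif's frame its match reads AAT, for asparagine, where the linker has lysine, so it does not encode the linker. None of the 21 changed by 2-fold. The median of the 21 was 1.147 and 1.085 on the control arrays and 0.750 and 0.937 on the RA arrays.

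The count of lower probes among the 21 was not stable. It was 6 with processed signals, 5 after median centring, 10 in Cy3 alone, 4 without control day 3 replicate 1 and 3 without RA 48 h replicate 1. The median stayed between -0.453 and -0.224 in all alternatives. A family of 4 probes with shared runs, led by Z00055646-1, holds 3 of the 21, and its changes ran from -0.158 to -0.768 with 3 of 4 lower. Such probes may read 1 transcript or several near copies.

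The codons of the homeodomain's recognition helix, the DNA-reading part of HOX and related proteins, were searched as TGGTTNCANAANNGNNG. These letters were in 5 tested probes, of which 2 were higher in RA and 0 lower, beside 22.4% higher and 15.9% lower over all tested probes. The shorter form TGGTTNCANAA was in 24 tested probes, of which 7 were higher and 2 lower, 37.5% in all against 38.3% of tested probes, with a median change of 0.033. The 2 higher probes of the longer form are shown with the match in capitals:
Z00026909-1: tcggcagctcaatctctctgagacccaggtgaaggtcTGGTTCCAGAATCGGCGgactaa
Z00024942-1: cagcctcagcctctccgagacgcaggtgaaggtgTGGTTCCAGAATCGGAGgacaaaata

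Probe Z00026909-1 read -0.38 and -0.30 in control and 0.66 and 0.60 in RA, a rise of 0.98 ± 0.10 (SE, adjusted p = 5.42e-06, limma). Probe Z00024942-1 read -0.08 and -0.07 in control and 0.37 and 0.27 in RA, a rise of 0.39 ± 0.10. The remaining 3 changed by -0.16, 0.00 and 0.05 and did not pass. Read in the motif's frame, the match in the first, Z00005935-1, has TGC, for cysteine, in place of an arginine codon. The match in the last, Z00037245-1, runs into the stop codon TGA, so neither encodes the helix. The match in the second, Z00026180-1, has neither of these differences. That probe read -3.23 and -3.08 in control and -3.08 and -3.23 in RA. On the opposite strand the same letters were in 2 probes, of which 0 were higher and 1 lower.

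**Figure D3:**
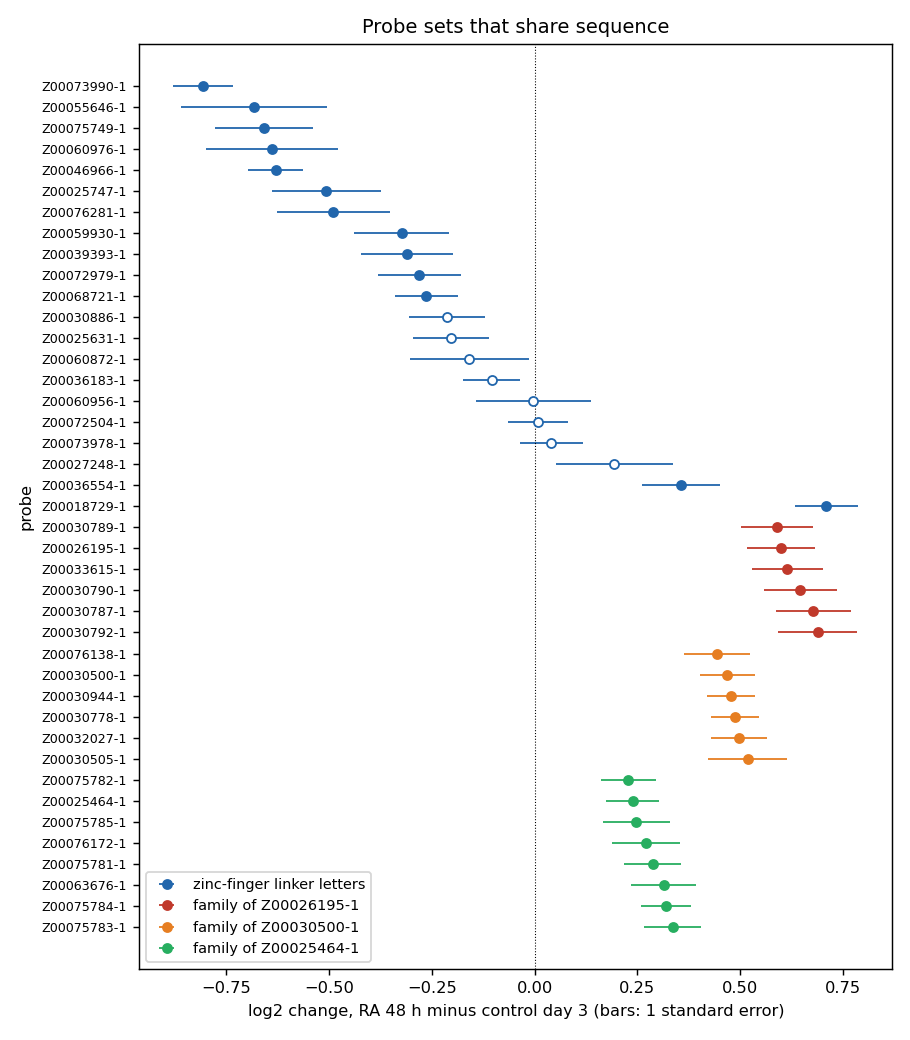
Fitted log2 change, RA 48 h minus control day 3 (x axis), with bars of 1 standard error, for the 21 probes that hold the zinc-finger linker letters and for the families of Z00026195-1, Z00030500-1 and Z00025464-1, 1 probe a row. Filled points passed the adjusted p of 0.05. Of the 21 linker probes 11 filled points lie below 0 and 2 above, and the 20 points of the families all lie above 0, as fitted after loess.

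The poly(A) signal AATAAA was in 2293 tested probes (7.38%) on the probe strand and, read on the opposite strand, in 952 (3.07%). It was in 10.2% of the probes that rose at least 2-fold and in 13.3% of those that fell. The variant ATTAAA was in 2.86% and 1.44% of them, against 3.18% of tested probes.

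A few genes could be named where a probe matches the start of a gene in RefSeq's promoter windows (250 bases before to 50 after the annotated start, GRCm38.p6). A probe was placed where at least 30 bases matched without a difference, at least 10 of them past the start, in a window of 1 gene with a symbol other than Gm, LOC or Rik. This placed 72 probes at 71 genes. Copies elsewhere in the genome were not searched, so each name is uncertain, above all for histone and ribosomal protein genes, which have many near copies. Of the 72, 6 were higher and 4 lower, 0 by 2-fold, and their median change was -0.015, beside 22.4% higher and 15.9% lower over all tested probes.

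The largest fall among the placed probes was that of Rpl38, which encodes a protein of the large ribosomal subunit. Its probe lies at chr11:114668538-114668597, plus strand, with 42 bases before the annotated start and 18 after it. It read 1.34 and 1.25 in control and 0.49 and 0.48 in RA, a change of -0.81 ± 0.10 (SE, adjusted p = 2.57e-05, limma). The groups did not overlap, and the change passed under every alternative that held it, between -0.99 and -0.77.

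H3f3a, which encodes the replacement histone H3.3, was also lower. Its probe matched 46 bases at chr1:180813556-180813601, minus strand, just after the start. It read 0.42 and 0.47 in control and -0.17 and -0.08 in RA, a change of -0.58 ± 0.09 (SE), and passed under every alternative that held it. Mif, which encodes the cytokine macrophage migration inhibitory factor, read -0.09 and -0.17 in control and -0.59 and -0.68 in RA at chr10:75860228-75860276, minus strand. Its change of -0.51 ± 0.13 (SE) no longer passed without control day 3 replicate 1 or without RA 48 h replicate 2 (adjusted p = 0.061 and 0.0665, limma). Fau, which encodes a ubiquitin-like protein fused to a ribosomal protein, had 2 placed probes that disagreed: one changed by -0.26 ± 0.08 and passed, and the other by 0.01 ± 0.08 and did not. The former has 38 bases before the annotated start and 22 after it, whereas the other matched 42 bases, all after it. The former no longer passed after median centring (adjusted p = 0.0549, limma), without control day 3 replicate 1 (0.148), without RA 48 h replicate 1 (0.0517) or without RA 48 h replicate 2 (0.096).

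The 6 placed probes that were higher all moved by less than 0.4. H2bc11 and H4c3, genes of the core histones H2B and H4 at chromosome 13, rose by 0.35 ± 0.09 and 0.25 ± 0.08 (SE). H2bc11 read 0.71 and 0.53 in control and 1.05 and 0.90 in RA. H4c3 read 0.72 and 0.55 in control and 0.96 and 0.82 in RA. The probe of H2ac18, a core histone H2A gene, changed by 0.30 ± 0.13 and did not pass (adjusted p = 0.0899, limma). Frg2f1, Ttll3, Zfp976 and Xlr3b rose by 0.30, 0.29, 0.26 and 0.22. Ttll3 encodes an enzyme that adds glycine to tubulin. After median centring none of these 6 rises passed, and in the Cy3 channel alone the value for Xlr3b was -0.03.

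The levels of the same probes in the other 5 groups place the 48 h culture among them. These are untreated cells in standard culture (standard day 3), cells passaged 10 times after a 7-day exposure (passage 10), cells in the phosphoinositide 3-kinase inhibitor LY294002 for 48 h, and colonies picked by hand on day 4 and day 7 of 50 nM retinoic acid. All lie on other slides, some on other sublines (MC1-ZE16 at day 4, MC1 at day 7), so no test is given. For 14 of the 15 largest rises the RA 48 h mean was the highest of the 7 groups. Over all tested probes RA 48 h was the highest group in 5210 (16.8%), and among the 840 rises in 646 (76.9%). The rises were chosen for lying above control, and all tested probes were not, so part of the larger share follows from that choice.

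Colony levels of the 15 rising probes lay above control in both colony groups for all 15, and mostly below the 48 h culture. These probes were chosen on the same control and RA arrays, so part of this order follows from the choice. The share over all tested probes is not given here. Probe Z00005024-1 stood at 1.51 ± 0.02 in day 4 colonies and 1.66 ± 0.79 (SD, n = 2) in day 7 colonies, against 5.19 ± 0.05 in RA 48 h. Probe Z00036124-1 stood at -6.70 ± 0.13 and -5.33 ± 0.31, against -2.70 ± 0.11 in RA 48 h. Untreated standard day 3, also on other slides, lay on either side of control day 3 for these probes. Z00005024-1 stood at 0.13 there and at 0.41 in control day 3, and Z00036124-1 at -6.69 and -6.97. The day 4 level of Z00036124-1 was thus about that of untreated standard culture. The exception to the order was Z00022345-1, at 0.44 ± 0.01 in day 4 and 0.76 ± 0.37 in day 7 colonies, against 0.07 ± 0.12 in RA 48 h. Probe Z00075138-1 stood at 3.00 ± 0.02 in day 4 colonies and at 3.04 ± 0.13 in RA 48 h, which do not differ beyond their spread.

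LY294002 gave low levels for some of the same probes. Of the 15 rising probes 3 were at least 2-fold lower in LY294002 than in control day 3. Z00076304-1 stood at -2.71 ± 0.17, Z00034256-1 at -2.76 ± 0.09 and Z00071195-1 at -1.30 ± 0.32 (SD, n = 2), against control means of 1.54, 1.96 and 2.32. In standard day 3 they stood at 0.31, 0.63 and 0.69, below control day 3 as well. Of the 15 falling probes 8 were at least 2-fold lower in LY294002 than in control day 3, and 1, Z00004978-1, was higher, at 2.64 ± 0.03. The falls were chosen for control levels above RA on these same control arrays, which by itself favours lower values elsewhere. The shares of all tested probes lower in LY294002 are not given here.

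Among the 15 falls, RA 48 h was the lowest of the 7 groups in 7. It was the lowest in 52 of the 278 falls (18.7%), beside 3846 of all tested probes (12.4%). The falls were chosen for lying below control, and all tested probes were not, so these shares are not like for like. Probe Z00004978-1 was below 0 only in RA 48 h among the group means, at -0.90, with the other 6 between 1.25 and 2.64. The same held for Z00003616-1 and Z00038583-1, at -0.95 and -1.30 in RA 48 h. Probe Z00048598-1 was lower in the colonies than at 48 h, at -2.22 ± 0.12 and -2.10 ± 0.44 (SD, n = 2) against -0.84 ± 0.02. The 278 falls had a median level of 1.261 in control cells and -0.086 after retinoic acid. Their median was -0.237 in day 4 colonies, -0.07 in day 7 colonies and -0.02 with LY294002. The 840 rises had a median level of -0.436 in control cells and 1.033 after retinoic acid. Their median was -0.121 in day 4 colonies, 0.254 in day 7 colonies and -0.57 with LY294002. In passage 10 the medians were 0.978 for the falls and -0.457 for the rises, beside 1.002 and -0.334 in standard day 3.

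**Figure D4:**
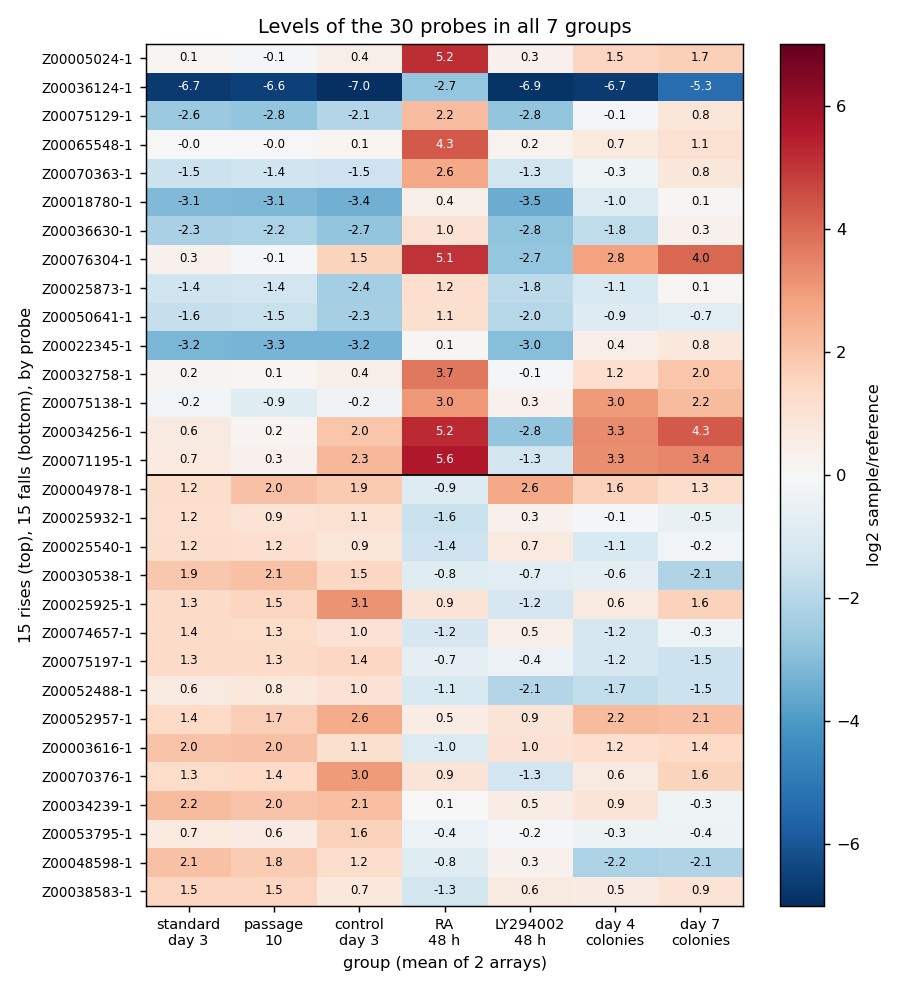
Mean log2 sample over reference of 2 arrays (colour and printed value) in each of the 7 groups (x axis) for the 15 probes with the largest rises (above the line) and the 15 with the largest falls (below it). The RA 48 h column is the reddest in 14 of the upper 15 rows. In the lower rows Z00004978-1, Z00003616-1 and Z00038583-1 are below 0 in that column alone. The groups other than control day 3 and RA 48 h lie on other slides.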

How the data were processed

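Per the file headers, version 9.5.1.1 of Agilent Feature Extraction read the 2-colour arrays of 60-base probes. The deposited intensity of each spot, a mean signal and a median local background in either colour, is raw, per the file headers. Processed intensities and log10 ratios of Cy5 over Cy3 were made by that software, per the file headers. A log10 value for 25030 probes stands in the table deposited by the authors. It matched minus the deposited log10 ratio across arrays (r of 0.99927 to 0.99997 over 14654 probes), so its direction is sample over reference. Its column medians were 2.3 to 2.32 on these arrays, and what it was centred on stays unknown. The build and the steps behind it are not given in the sources used here.

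Signals were corrected with normexp (offset 50) and normalized within arrays by loess (control spots at weight 0) in limma 3.58.1 under R 4.3.3. Spots flagged as outliers (1 to 4 on these arrays) were left out, and repeat spots, at most 5 for 1 probe, were averaged. The test took probes that in some group had Cy3 well above background on each array (31053 of 42006). All 14 arrays were fitted with 1 mean per group, with 7 residual and 5.33 prior degrees of freedom, and tested with eBayes at a Benjamini-Hochberg adjusted p under 0.05. The fit was tested on simulated data.

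The named probes are the 15 largest rises and 15 largest falls past the threshold whose arrays do not overlap and that are well above background where high. The rule also asked for a gene symbol, a clause left out after the data were seen because no probe has one. Of 24 gene lists with 514 symbols, 0 symbols could be matched, so the lists were not used. Probes that share sequence, the motifs and the placed genes were added in their stead. The members, lists and motifs were chosen with earlier results of these data known. Promoter windows are those of RefSeq on GRCm38.p6.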

Additional observations from a re-analysis of the deposited data

How the results depend on the processing

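The 4 counts were recomputed under 14 alternatives each, and most stayed within 1.5 times. Probes called higher numbered 4025 with Agilent's processed signals, 2379 after median centring and 3801 in the authors' value table, which held 19083 of the tested probes. Probes called lower numbered 2908 after median centring. With processed signals 1295 probes were at least 2-fold higher and 848 at least 2-fold lower, and the value table gave 601 at least 2-fold lower. Leaving out 1 array at a time gave 5106 to 5451 higher, 3211 to 3625 lower, 798 to 884 at least 2-fold higher and 277 to 304 at least 2-fold lower. The lone array of a group is then assumed to vary like the other groups.

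Same-numbered arrays did not deviate together (r = -0.0179 across probes), and no label ties them. With the replicate number as a block on the 4 arrays, 8661 probes were higher, 6709 lower, 840 at least 2-fold higher and 279 at least 2-fold lower. Slide as a random block (correlation -0.0338) gave 6917 and 4893. All 30 named probes kept their direction and passed under every alternative that held them. Of the placed genes, Xlr3b (probe Z00076312-1) was at -0.0254 in the Cy3 channel alone, with an adjusted p of 0.825 (limma); the cause was not tested. The mean over the probes of a gene was not run, as no gene list could be matched. Signal over background limits folds of dim probes: Z00025873-1 ranged from 2.88 to 7.77 on the log2 scale.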
